A study of Mus musculus with 12 samples.

Results

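The EGF family ligands are 9 genes of the count table, Areg, Ereg, Btc, Hbegf, Tgfa, Egf, Nrg1, Nrg2 and Nrg4, taken by symbol from the 16411 genes listed, and all 9 were present. RNA was sequenced from 6 mammary tumors and 6 pieces of benign mammary tissue of female mice on an FVB background that are heterozygous for the MMTV-Neu-NDL-YD5 transgene, so the benign samples carry the transgene as well. The MMTV promoter drives this activated rat form of HER2 mainly in mammary epithelium, and in the YD5 version most tyrosine autophosphorylation sites are removed and the site that recruits SHC is restored. No mouse was treated, mice were watched for tumors from 10 weeks of age up to a 20-week limit, and the age at collection of each sample is not given in the sources used here. Benign tissue was mammary fat pad without a visible tumor, taken far from the tumor site, and for RNA it came from other mice than the tumors. Values are CPM, the counts-per-million unit, made from estimated counts after TMM normalization. Calls rest on edgeR's quasi-likelihood test over 13191 genes with Benjamini-Hochberg adjustment, at a threshold of 0.1.

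EGF family ligands are made as membrane-anchored precursors that are cut loose by proteases of the ADAM family, and the freed ligand binds receptors of the ERBB family and brings them together in pairs. Amphiregulin (Areg), TGF-alpha (Tgfa) and EGF (Egf) bind EGFR, whereas betacellulin (Btc), heparin-binding EGF (Hbegf) and epiregulin (Ereg) bind EGFR and ERBB4. Neuregulins bind ERBB3 and ERBB4, and neuregulin 4 (Nrg4) binds ERBB4. HER2, the product of Erbb2, has no ligand of its own and signals as the partner of the other receptors, and amphiregulin is known as the EGFR ligand that the mammary duct needs to grow at puberty.

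The start regions of 3 ligand genes are shown because the transcripts of Areg and Nrg4 fell in tumors and those of Egf rose. Each is the 250 bases before a RefSeq transcript start in build GRCm38.p6, read 5′ to 3′ on the gene's own strand, and capitals mark matches on either strand to 5 searched motifs. Areg lies at chr5:91139599-91148432 on the plus strand in GENCODE M21, Nrg4 at chr9:55220222-55326844 on the minus strand and Egf at chr3:129677565-129755316 on the minus strand. The stretch shown is outside the gene for Areg and for Egf, where an exon of the antisense gene 6330410L21Rik covers the other strand, and for Nrg4 it lies before an internal start, inside the span of longer transcripts.
Areg, chr5:91139349-91139598: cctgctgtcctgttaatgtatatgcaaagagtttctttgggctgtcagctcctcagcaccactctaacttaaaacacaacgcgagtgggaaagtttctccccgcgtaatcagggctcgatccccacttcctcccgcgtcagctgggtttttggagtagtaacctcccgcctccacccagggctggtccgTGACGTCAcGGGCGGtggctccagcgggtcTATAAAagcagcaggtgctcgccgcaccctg
Nrg4, chr9:55283626-55283875: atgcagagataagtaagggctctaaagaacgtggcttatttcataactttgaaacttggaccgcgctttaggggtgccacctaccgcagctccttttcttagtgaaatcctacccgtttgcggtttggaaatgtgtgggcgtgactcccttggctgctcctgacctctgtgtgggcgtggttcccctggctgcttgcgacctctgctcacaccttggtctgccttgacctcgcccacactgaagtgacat
Egf, chr3:129755323-129755572: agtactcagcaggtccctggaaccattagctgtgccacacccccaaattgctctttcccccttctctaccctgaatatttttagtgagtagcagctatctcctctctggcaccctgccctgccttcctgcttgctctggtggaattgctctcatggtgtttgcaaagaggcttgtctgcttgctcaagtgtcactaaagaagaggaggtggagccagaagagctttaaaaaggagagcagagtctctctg
The longest motif was the cyclic AMP response element, TGACGTCA, where factors of the CREB family bind. An AP-1 site was searched as TGACTCA, which Jun and Fos proteins bind. The ETS family was represented by the letters CCGGAAG, found at many starts of housekeeping genes. The general promoter elements were the TATA box, searched as TATAAA, which places the start of transcription in some genes. A GC box was searched as GGGCGG, the core of sites for Sp1, and no matches overlapped each other. The Areg stretch holds the cyclic AMP response element 61 to 54 bases before the start, a GC box at 52 to 47 and a TATA box at 31 to 26. Among 32851 such stretches of mouse genes, 1.55% hold the first, 32.7% the second and 12.4% the third. Neither the Nrg4 nor the Egf stretch shown holds the letters of any of the 5 motifs, of which the AP-1 site stands in 4.46% and the ETS site in 6.91% of all stretches. RefSeq entries were matched for 5 of the 9 ligands. A second RefSeq start of Egf, inside the gene (chr3:129725087-129725336, not shown), holds an ETS match 45 to 39 bases before that start. Of the others with an entry, Tgfa holds GC boxes at 126 to 121 and 15 to 10 bases before the start, and Btc holds none of the 5 motifs.

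Of the 9 ligands 7 passed the expression filter, and 4 of these were called higher in tumors (Nrg2, Tgfa, Egf and Hbegf), 2 lower (Areg and Nrg4) and 1 not different (Btc). Ereg and Nrg1 were under the filter. Among all 13191 genes tested, 63.0% were called, 28.2% as higher and 34.8% as lower, so calls were common in this contrast. Areg and Nrg4 passed the filter by their benign samples and Nrg2 by its tumors, since at a cutoff of 1.36 CPM only 3 tumors had enough Areg, none had enough Nrg4, and 4 benign samples had enough Nrg2. The groups did not overlap for Nrg2, Tgfa, Areg and Nrg4, which was so for 35.9% of all genes tested. The 12 libraries held 5240853 to 8588567 counts, and 3 counts correspond to 0.411 CPM at the mean depth.

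**Figure D1:**
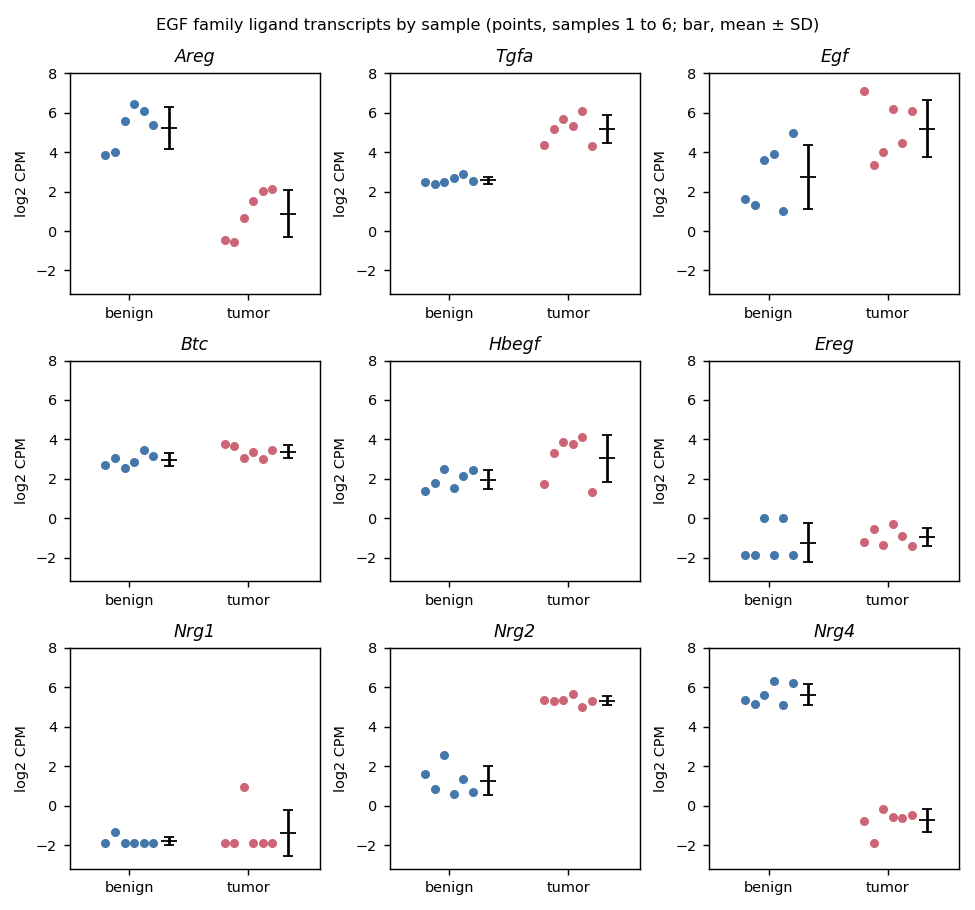
Log2 CPM (2 counts added) of the 9 ligands in 6 benign samples (blue) and 6 tumors (red), in the order of their numbers, with the mean ± SD beside each group. Tumors lie above every benign sample for Tgfa and Nrg2 and below every benign sample for Areg and Nrg4, while Ereg and Nrg1 stay near the detection limit.

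Among the ligands of EGFR alone, Areg fell and Tgfa and Egf rose. Areg had 14.1, 16.0, 47.0, 86.6, 68.9 and 41.6 CPM in benign samples 1 to 6. In tumors 1 to 6 it had 0.466, 0.412, 1.32, 2.56, 3.83 and 4.06 CPM, from 3 to 37 counts. Every tumor lay below every benign sample, and tumors 1 and 2 were near the limit of detection. The mean fell from 45.7 ± 28.7 to 2.11 ± 1.62 CPM (SD, n = 6 per group), a 21.7-fold difference of means with a log2 fold change of -4.44 (standard error 0.63, adjusted p = 5.6e-05 by edgeR; exact permutation test, two-sided, p = 0.00216, the smallest that 924 regroupings allow). In bulk tissue, fewer cells that make a transcript and less of it per cell cannot be told apart. Genes marking the luminal epithelium rose in the same tumors, from 933 to 2930 CPM summed over 10 genes in benign tissue to between 3410 and 5250 in tumors (9 of 10 higher), whereas Krt19, one of the list, fell. Myoepithelial markers fell (8 of 8, from 695 to 1640 CPM down to 33.3 to 112). Their part in the fall of Areg was not tested. Taken relative to the summed luminal markers, Areg was lower still in tumors, with log2 ratios from -12.90 to -9.89 against -7.23 to -4.40 in benign tissue.

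Tgfa, the EGFR ligand first found in the medium of transformed cells, was even in benign tissue and rose in every tumor. It had 5.33, 5.0, 5.29, 6.25, 7.10 and 5.49 CPM in benign samples 1 to 6. Tumors 1 to 6 had 20.1, 35.7, 51.7, 39.6, 68.3 and 19.6 CPM. The lowest tumor was therefore above the highest benign sample, and the tumors differed among themselves up to 3.48-fold. The mean rose from 5.74 ± 0.786 to 39.2 ± 18.8 CPM (SD, n = 6 per group), with a log2 fold change of 2.73 (standard error 0.30, adjusted p = 6.8e-06 by edgeR; exact permutation test, p = 0.00216). Relative to the luminal markers the groups overlapped, with mean log2 ratios of -8.22 in benign tissue and -6.99 in tumors.

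Egf, the founding member of the family, varied widely in both groups. Benign samples 1 to 6 had 2.75, 2.26, 12, 14.7, 1.74 and 30.8 CPM, a 17.6-fold range. Tumors 1 to 6 had 135, 9.89, 15.7, 73.0, 21.6 and 67.3 CPM, a 13.7-fold range. Tumors 1, 4 and 6 lay above every benign sample and the other 3 lay within the benign range. The mean was 10.7 ± 11.3 CPM in benign tissue and 53.8 ± 48.2 in tumors (SD, n = 6 per group). By edgeR the log2 fold change came to 2.28 (standard error 0.81, adjusted p = 0.028; exact permutation test, p = 0.0303). Benign samples 3, 4 and 6, which had the most Egf, were also those with skeletal muscle transcripts, at 34500 to 83600 CPM summed over 10 muscle genes against 51.2 to 383 in benign samples 1, 2 and 5 and 6.73 to 141 in tumors. Without benign samples 3, 4 and 6 the log2 fold change of Egf was 4.63 (adjusted p = 0.0035). Without benign samples 1, 2 and 5 it was 1.48 and was not called (adjusted p = 0.15), and without benign sample 6 alone it was 2.98. The part of muscle tissue in the benign Egf level was not tested otherwise. The antisense gene also overlaps the start of Egf itself, and although the library kit marks strand, it is not given in the sources used here whether the counting used it.

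Of the ligands shared by EGFR and ERBB4, Hbegf rose in 4 of the 6 tumors and Btc did not pass the test. Hbegf, which binds heparan sulfate on the cell surface, had 2.39, 3.22, 5.42, 2.60, 4.11 and 5.15 CPM in benign samples 1 to 6. Tumors 1 to 6 had 3.11, 9.75, 14.3, 13.5, 17.1 and 2.30 CPM. Tumors 2 to 5 lay above every benign sample, tumor 1 lay within the benign range and tumor 6 just below it. The mean was 3.82 ± 1.29 CPM in benign tissue and 10 ± 6.13 in tumors (SD, n = 6 per group), with a log2 fold change of 1.34 (standard error 0.47, adjusted p = 0.026 by edgeR). The exact permutation test on log2 CPM gave p = 0.0671, and the call was lost without benign samples 1, 2 and 5 (log2 fold change 1.18, adjusted p = 0.15 by edgeR). Relative to the summed luminal markers the groups overlapped, with a mean log2 ratio of -8.83 in benign tissue and -9.11 in tumors, so the mean difference had the opposite sign on that scale.

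Btc, a ligand first isolated from an islet tumor line, differed little between samples, with a range of 1.93-fold in benign tissue and 1.75-fold in tumors. Benign values ran from 5.55 to 10.7 CPM (median 7.61) and tumor values from 7.66 to 13.4 (median 10.4), and tumors 1, 2 and 6 were at or above the highest benign sample. The log2 fold change of 0.39 (standard error 0.21) did not pass (adjusted p = 0.12 by edgeR; exact permutation test, p = 0.0476). Btc was called by DESeq2 (0.42, adjusted p = 0.096), and by edgeR without benign sample 5 (0.50, adjusted p = 0.062) or without tumor sample 3 (0.52, 0.060), 4 (0.47, 0.0997) or 5 (0.53, 0.044). Ereg, epiregulin, had at most 6 counts in any sample, 12 counts in all in benign tissue and 12 in tumors. The 95% counting intervals, 0.145 to 0.490 CPM and 0.138 to 0.467 CPM over the pooled counts of each group (exact Poisson, counting error only), overlapped, and no difference was detectable at this depth (exact permutation test, p = 0.506, n = 6 per group). Ereg (chr5:91074622-91093646), Areg and Btc (chr5:91357261-91402994, minus strand) lie next to each other with Epgn, the gene of epigen, and of the 2 that were tested, Areg was called different and Btc was not. Epgn had 21 counts in benign tissue and 11 in tumors and was under the filter.

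The neuregulins moved in opposite directions. Nrg2, a ligand of ERBB3 and ERBB4 best known from neurons, had 2.75, 1.55, 5.67, 1.21, 2.24 and 1.33 CPM in benign samples 1 to 6, from 7 to 45 counts. Tumors 1 to 6 had 41.0, 39.6, 40.1, 50.1, 31.3 and 39.4 CPM. All tumors were far above all benign samples and close to each other, within a 1.6-fold range, the narrowest among the called ligands. The mean rose 16.4-fold, from 2.46 ± 1.68 to 40.2 ± 6.01 CPM (SD, n = 6 per group), with a log2 fold change of 3.97 (standard error 0.34, adjusted p = 7.4e-07 by edgeR; exact permutation test, p = 0.00216). Nrg2 was the called ligand whose tumors also lay above every benign sample relative to the luminal markers, with log2 ratios from -7.31 to -6.37 against -10.38 to -8.31.

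Nrg4, known as a factor secreted by brown and white fat, fell to near the limit of detection in tumors. Benign samples 1 to 6 had 40.4, 34.7, 47.9, 78.2, 33.9 and 74.1 CPM. Tumors 1 to 6 had 2, 0, 5, 3, 3 and 4 counts, together 17 of 44917641 counts or 0.378 CPM over the pooled counts (exact Poisson 95% interval 0.220 to 0.606), against 48.2 CPM in benign tissue (46.1 to 50.3). The groups were far apart, with a log2 fold change of -7.12 (standard error 0.42, adjusted p = 2.8e-08 by edgeR; exact permutation test, p = 0.00216, n = 6 per group). Adipocyte markers fell with it, from 8240 to 20300 CPM summed over 8 genes in benign tissue to between 29.7 and 137 in tumors (8 of 8 lower). Within benign tissue the summed adipocyte markers were highest in samples 4 and 6, as Nrg4 was, but lowest in sample 3, where Nrg4 ranked next after those. Nrg4 had the same order of samples as 8 summed brown adipocyte markers, highest in sample 4 (3120 CPM of markers), then in 6 (890), 3 (238), 1 (168), 2 (60.2) and 5 (49.8). Samples 3, 4 and 6 are also those rich in skeletal muscle transcripts, at 34500 to 83600 CPM summed over 10 genes. A relation of Nrg4 to brown adipocyte markers therefore cannot be told apart from that split. The part of fat content in the fall of Nrg4 was not tested. Nrg1 was at 0 counts in 5 benign samples and in 5 tumors, with 1 count in benign sample 2 and 14 counts (1.68 CPM) in tumor sample 3, so no fold change is given.

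**Figure D2:**
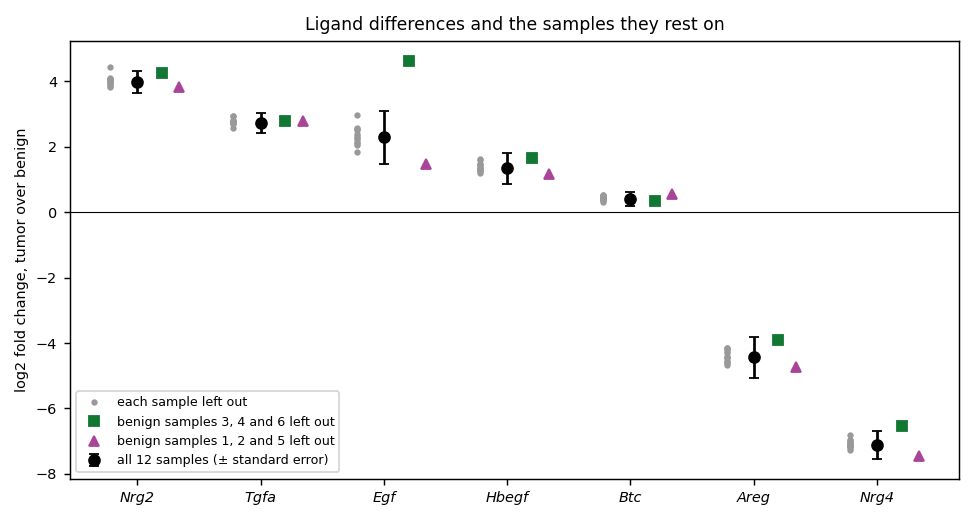
Log2 fold change of the 7 tested ligands, tumor over benign. Black points with bars give the fit of all 12 samples ± standard error, grey points the fits without each sample, green squares the fits without benign samples 3, 4 and 6 (muscle transcripts present) and purple triangles those without benign samples 1, 2 and 5. Egf moves the most, from 1.48 to 4.63, while Nrg2, Tgfa, Areg and Nrg4 stay far from 0.

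Levels per kilobase allow ligands of different length to be set side by side, but they depend on the length chosen, and values are given first over all annotated exons of a gene and then over its longest transcript. By mean level, Areg ranked highest in benign tissue and Nrg2 in tumors with both lengths. Over all exons, Areg in benign tissue stood at 37.6 ± 23.6 CPM per kilobase (SD, n = 6) and took 52.6% to 83.8% of the summed ligand level in each sample. Nrg4 followed at 8.48 ± 3.26 CPM per kilobase, below Areg in 6 of 6 samples although their ranges over samples overlap. Over the longest transcript Nrg4 stood at 24.6 CPM per kilobase in benign tissue and Areg still at 37.6, and Nrg4 was then above Areg in benign samples 1, 2 and 6, so Areg led in 3 of 6. Btc (1.71), Egf (0.950), Tgfa (0.885), Hbegf (0.789) and Nrg2 (0.784) came next over all exons, and neighbours in this order overlapped. In tumors Nrg2 stood at 12.8 ± 1.91 CPM per kilobase over all exons, with 32.2% to 52.1% of the sum, and was the leading ligand in 5 of 6 tumors, while Tgfa led in tumor sample 5 with 34%. Over the longest transcript Nrg2 led in 3 of 6 tumors, Egf in tumor samples 1 and 6 and Tgfa in tumor sample 5. Tgfa (6.03 ± 2.89), Egf (4.77 ± 4.28), Btc (2.30 ± 0.505), Hbegf (2.07 ± 1.27) and Areg (1.73 ± 1.33) followed, again with overlapping neighbours, and Ereg, Nrg4 and Nrg1 were each under 0.1. Several neighbours changed places over the longest transcript, namely Btc with Egf and Tgfa with Hbegf in benign tissue, and Tgfa with Egf, Btc with Hbegf and Ereg with Nrg4 in tumors. In tumors Egf then stood at 11.3 CPM per kilobase and Tgfa at 8.65.

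Summed by receptor preference over all exons, EGFR ligands had 39.4 ± 23.9 CPM per kilobase in benign tissue and 12.5 ± 3.49 in tumors (SD, n = 6 per group), and most of the benign sum was Areg. The groups overlapped, at 12.7 to 73.5 CPM per kilobase in benign samples and 6.72 to 15.6 in tumors. They also overlapped in the other sums over all exons. Ligands of EGFR and ERBB4 had 2.56 ± 0.559 in benign tissue and 4.44 ± 0.959 in tumors on the same scale. Neuregulins had 9.27 ± 3.12 in benign tissue and 12.9 ± 1.92 in tumors, mostly Nrg4 in the former and Nrg2 in the latter. The direction of this difference turned with the length used. Over the longest transcript neuregulins had 25.4 ± 9.28 CPM per kilobase in benign tissue and 13.4 ± 1.98 in tumors. With that length the groups did not overlap, at 16.9 to 37.7 in benign samples and 10.4 to 16.6 in tumors. The other sums kept their order over the longest transcript, at 41.1 ± 24.4 and 21.7 ± 7.99 for EGFR ligands and 3.3 ± 0.725 and 6.11 ± 1.74 for ligands of EGFR and ERBB4. Over all exons the sum of all 9 ranged from 22.1 to 88.9 CPM per kilobase in benign samples and from 24.2 to 35.9 in tumors, so the groups overlapped and the benign samples spread more widely.

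**Figure D3:**
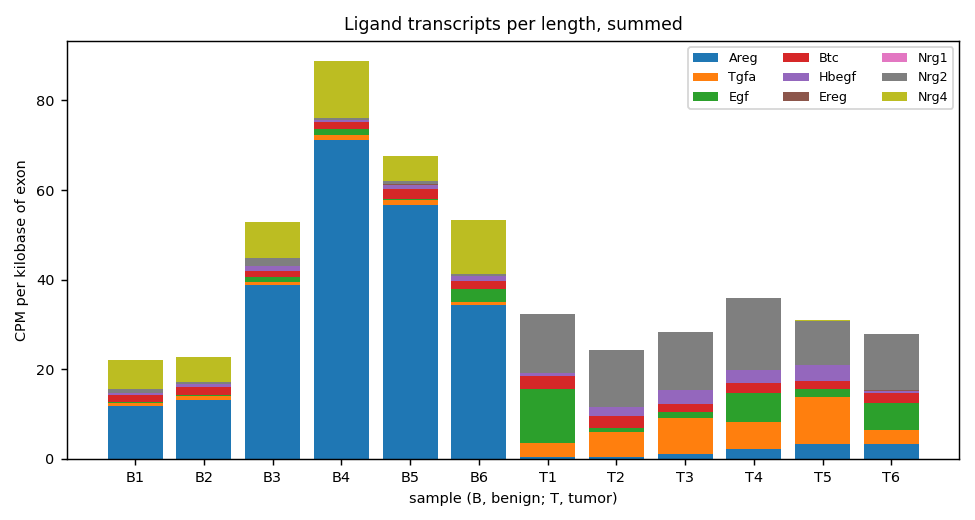
CPM per kilobase of exon of the 9 ligands, stacked, in benign samples B1 to B6 and tumors T1 to T6. Areg (blue) and Nrg4 (olive) make most of each benign bar over all exons, and Nrg2 (grey), Tgfa (orange) and Egf (green) most of each tumor bar.

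Within the groups, none of the 36 pairs of ligands examined had an adjusted p under 0.05, but a lone pair could not reach that. The smallest p that 720 orderings of 6 samples allow becomes 0.050 for r and 0.10 for rho after adjustment. The lack of pairs under 0.05 therefore does not show whether ligands vary together. Tgfa and Hbegf had the same order over the 6 tumors, highest in sample 5, then 3, 4, 2, 1 and 6 (Pearson's r = 0.96 on log2 CPM, exact permutation test p = 0.00139; Spearman's rho = 1.0, p = 0.00278). Adjusted over the 36 pairs, these values were 0.050 for r and 0.10 for rho, and without the 2 tumors farthest from the median of Hbegf r was 0.90 (n = 4). The tumors with the least Tgfa and Hbegf, samples 1 and 6, were among the 3 with the most Egf, but across 6 tumors Egf and Tgfa gave r = -0.66 (exact permutation test, p = 0.172; adjusted p = 0.889) and rho = -0.37. In benign tissue the same Tgfa and Hbegf pair gave r = -0.01. The pair with the highest r in benign tissue was Egf and Nrg4 (r = 0.92, exact permutation test p = 0.00694; rho = 0.94, p = 0.0167), and its adjusted values were 0.125 and 0.301. Both were higher in benign samples 3, 4 and 6 than in the other 3, which differ in muscle transcripts, so this relation cannot be told apart from that split.

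**Figure D4:**
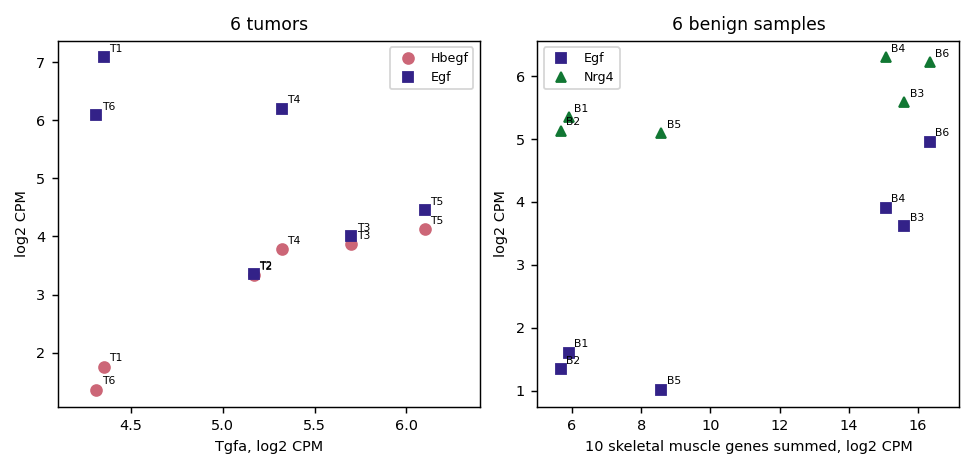
Left, log2 CPM of Hbegf (circles) and Egf (squares) against Tgfa in the 6 tumors T1 to T6. Right, log2 CPM of Egf (squares) and Nrg4 (triangles) in benign samples B1 to B6 against the log2 of the summed CPM of 10 skeletal muscle genes. Hbegf climbs with Tgfa, and Egf and Nrg4 are higher in the 3 benign samples with muscle transcripts than in the 3 with few.

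The other genes of the ERBB system were taken from lists of receptors, proteases, cofactors, adaptors and inhibitors, of which 36 genes were tested, 18 higher and 7 lower in tumors, with a median log2 fold change of 0.29 against -0.06 over all genes. Since 28.2% of all genes tested were called higher, 34.8% lower and 63.0% in either direction, the counts below are read against those shares. In the same bulk tissue the median log2 fold change was 1.34 for luminal markers. It was -3.18 for fibroblast, -3.39 for endothelial and -8.22 for adipocyte markers. The part of tissue make-up in the differences of the ERBB system was not tested. Mucl1 and Nrg3 of these lists were not analysed here. All 4 receptor genes were higher, with no overlap between groups, against 28.2% called higher and 35.9% without overlap among all genes. Erbb2 lay between 42.9 and 73.5 CPM in benign tissue and between 1990 and 16600 in tumors, without separation of transgene and mouse transcripts. Erbb4 (log2 fold change 4.04), the receptor of the neuregulins and of betacellulin, rose from 1.95 ± 0.898 to 33.7 ± 11.3 CPM. Erbb3 (2.36), which binds neuregulins and has little kinase activity, rose from 65.5 ± 30.5 to 342 ± 68.9 CPM. Egfr (1.03), the receptor of the EGF-like ligands, rose from 68.0 ± 11.3 to 143 ± 43.9 CPM (SD, n = 6 per group for each; largest adjusted p of the 4 = 7.6e-04 by edgeR).

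Among 10 genes of ligand shedding, 4 rose and 3 fell, which is near the 63.0% of all genes called. The cofactor, adaptor and negative regulator lists are as short, and their counts are given as a description. Rhbdf2 (log2 fold change 0.72), which carries the protease ADAM17 to the cell surface, rose the most. Adam17 (0.65), Bace1 (0.57) and Adam10 (0.47), all proteases that cut ligand precursors, rose as well. Timp3 (-2.71), an inhibitor of ADAM17, fell the most, from 332 ± 89.0 to 52.0 ± 26.0 CPM, with Adam19 (-1.75) and Adam9 (-0.51) lower too. Of 6 cofactors 3 rose and 1 fell, with Sdc4 (2.04), a heparan sulfate proteoglycan, at the top and Muc4, a membrane mucin that binds HER2, at 17.5 ± 11.1 CPM in benign tissue and 5 counts in all 6 tumors together. Of 6 adaptors 2 rose and 1 fell, from Grb7 (1.82), a neighbour of Erbb2 in the genome, to Grb2 (-0.36). Of 10 negative regulators 5 rose and 2 fell. Errfi1 (1.85), an inhibitor of the EGFR kinase that is itself induced by EGFR signaling, rose the most, and Socs3 (-1.58), better known from cytokine signaling, fell the most.

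**Figure D5:**
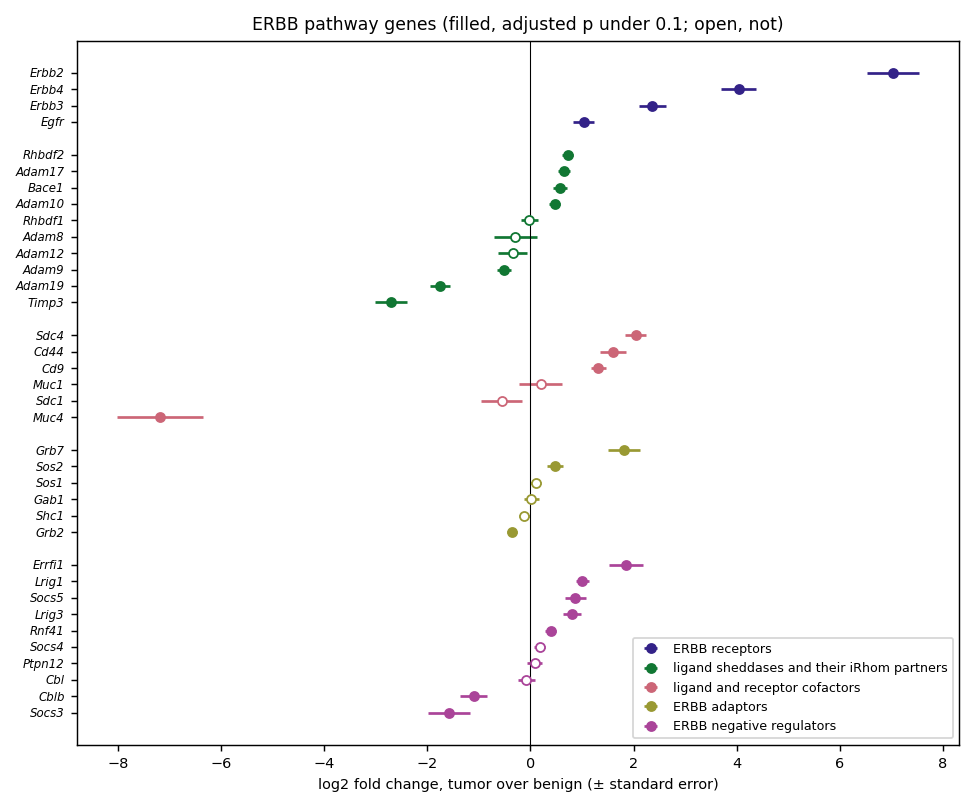
Log2 fold change (tumor over benign, ± standard error) of the 36 tested genes of the ERBB receptor, shedding, cofactor, adaptor and negative regulator lists. Filled points have an adjusted p under 0.1; the 4 receptors all lie above 0, and Muc4, Timp3, Adam19, Socs3 and Cblb lie below -1.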

How the data were processed

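The authors enriched poly A RNA from frozen tissue, sequenced paired reads and used Salmon for quantification. The values deposited are estimated counts, whole and unscaled, by gene in each of the 12 samples. The submitters' processing notes also name Trim Galore, DESeq2 and build mm10; the annotation and tool versions are not given in the sources used here. No column lacked a sample. Samples were grouped by their titles, and every pair of replicates differed by more than sampling noise (chi-square per degree of freedom at least 13.0).

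From the deposited counts, genes were filtered (filterByExpr, minimum count 10, minimum total 15), scaled by TMM and fitted with edgeR 4.0.16 in R 4.3.3 (two-sided, Benjamini-Hochberg over 13191 genes). A standard error is the log2 fold change divided by the square root of F. Log2 CPM has 2 counts added. Single ligands were also compared by exact permutation. Alternatives were DESeq2 1.42.0, other scalings and filters, a block for the replicate number, a stricter threshold (0.05), and leaving out samples. In simulated counts for 13191 genes, 200 genes were changed. There edgeR recovered 67.2%, 91.3% and 97.0% of genes changed 2-, 4- and 8-fold, and 10.0% of its calls were false. In the real contrast 63.0% of genes were called, and the simulation did not test these rates for changes that broad.

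Lengths (all exons, or the longest transcript) and coordinates are from GENCODE M21 (GRCm38), start regions from RefSeq. The ligands and gene lists were chosen with earlier results of these data known. Genes named beside the ligands are the receptors, the largest rise and fall among called genes of each list, and the 3 genes of at least 5 CPM most like each ligand; other called members of the shedding list, Cblb and Krt19 were named after their values were seen. Some genes that these rules and lists name are not reported here.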

Additional observations from a re-analysis of the deposited data

Results flagged for a closer look

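In 18 groups of 6 samples, 3 samples stood apart from the other 5 of their group on the log2 CPM scale. The rule was Dixon's ratio at its 95% critical value, where chance gives about 1 in 20 groups. That rate assumes continuous values, and all 3 cases come from groups with counts at or near 0, so it does not apply to them. Nrg1 stood at 0.97 in tumor sample 3, from 14 counts, with the other tumors at -1.87, the value of 0 counts. Nrg1 in benign sample 2 stood at -1.35, from 1 count, with the others at -1.87. Nrg4 in tumor sample 2 stood at -1.87, from 0 counts, with the other tumors between -0.78 and -0.19.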

How the results depend on the processing

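Of 151 refits of the 7 tested ligands, 141 left the direction and the call as they were, 8 brought Btc past the threshold, 2 took a call away and none turned a direction. Btc was called by DESeq2 (0.42), with total counts as library size (0.48), when genes needed 1 count in total (0.48) and when they needed 10 counts per sample (0.45). Under this last filter 0 ligands were called lower, because Areg and Nrg4 were then not tested. Nrg2 was not tested under it either, and the 4 ligands called higher were Btc, Hbegf, Tgfa and Egf. Without benign samples 1, 2 and 5, 2 ligands were called higher in place of 4, since Egf (1.48) and Hbegf (1.18) lost their calls. Over the 12 fits that each left out 1 sample, 4 to 5 ligands were called higher, 2 were called lower, and log2 fold changes ranged from -4.67 to -4.16 for Areg, 0.32 to 0.53 for Btc, 1.18 to 1.62 for Hbegf, 2.56 to 2.94 for Tgfa, 1.82 to 2.98 for Egf, 3.84 to 4.43 for Nrg2 and -7.26 to -6.82 for Nrg4. With the replicate number as a block, 4 ligands were called higher and 2 lower, and Hbegf had 1.15 (adjusted p = 0.080 by edgeR). Samples of the same number correlated at -0.125 to 0.103, and the groups came from different mice, so the numbers do not pair them. With the longest transcript the summed level in tumors was 41.2 in place of 29.9 CPM per kilobase. The neuregulin sum, higher in tumors over all exons (9.27 and 12.9, groups overlapping), was lower there over the longest transcript (25.4 and 13.4, not overlapping). The exact permutation test of Btc moved from 0.0476 on log2 CPM to 0.0541 on CPM. Depth limits Ereg, Nrg1 and the tumor level of Nrg4.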

Other observations

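Other marker lists describe the tissue in which the ligands were measured. Fibroblast markers (8 of 8 lower, 4550 to 12600 CPM summed in benign tissue and 507 to 1190 in tumors), endothelial markers (7 of 7 lower, 575 to 1160 and 82.6 to 99.1) and macrophage markers (6 of 7 lower, 499 to 1100 and 293 to 498) fell in tumors, as did 5 of 7 tested brown adipocyte markers, while Ppargc1a of that list rose, and 7 of 7 tested skeletal muscle markers. Of 3 tested lymphocyte markers 2 were lower, and benign sample 1 stood at 837 CPM summed over 7 lymphocyte genes against at most 15 in any other sample. Among Schwann cell markers, a list added because neuregulins act on these cells, Sox10 and Cdh19 rose and Mbp fell. Sox10, also expressed by mammary epithelium, ranged from 35.4 to 230 CPM in benign tissue and from 841 to 1130 in tumors.

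The genes most like each ligand after the mean of each group was subtracted are given as a description over 12 samples, as the highest of 12019 genes. For Tgfa they were Pdlim4 (r = 0.935), Ggcx and Ubald2, for Egf Rragd (0.950), Bckdk and Synj2bp, and for Areg Mrpl22 (0.888), Gtf2h5 and Lsm12. For Hbegf they were D630045J12Rik (0.880), Mvb12b and Washc5, for Btc Fbxo25 (0.796), Ipo8 and Rab32, and for Nrg2 Rrp1b (0.915) and Urb2. For Nrg4 they were Tph1 (0.890), Ebf3 and P2rx5, all 3 of them much lower in tumors, at 31.0, 49.8 and 16.0 CPM in benign tissue and 0.814, 1.6 and 0.852 CPM in tumors. Since Nrg4 had only 0 to 5 counts in each tumor, its r rests in part on values near the limit of detection.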
